A study of Canis lupus familiaris with 77 samples.

Results

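Both mature arms of miR-122 were examined, the 5p arm listed as cfa-miR-122 and the 3p arm listed under its human name, hsa-miR-122-3p. They are the 2 members, of 650 miRNA rows in all, whose leading name is an arm of this precursor. They are defined by their names and not by a threshold on any value. miR-122 is a liver miRNA made chiefly by hepatocytes, where it takes part in lipid and cholesterol metabolism and binds the RNA of hepatitis C virus. Its precursor is a hairpin that Dicer cuts into a 5p and a 3p strand, and Argonaute proteins usually keep one of them, the guide, while the passenger strand is degraded. It leaks into blood when hepatocytes are injured and is therefore followed in blood as a marker of liver damage.

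The atlas was made by miR-seq, which sequences RNA of miRNA length, from untreated male Marshall Beagle dogs, 5 animals of 10 months of age. The organs were taken after perfusion with PBS, and blood was collected into K2EDTA for plasma. No group carried a transgene or a treatment. RNA was extracted from solid tissues with magnetic beads, from bone marrow with TriReagent and from plasma by a procedure of its own, so tissue and extraction cannot be told apart for bone marrow and plasma. There were 76 libraries from 16 tissues. Liver, plasma, duodenum, jejunum, ileum, pancreas, kidney, lung, heart, skeletal muscle, brain, bone marrow, thymus and testis had 5 libraries each. Colon had 4 and sciatic nerve 2. The sciatic nerve samples are described in more than 1 way in the study's methods, so whether these 2 came from separate dogs is not settled. The tissues came from the same 5 dogs, but the labels do not say which library is from which dog, and none were paired. The tests treat libraries of different tissues as independent although they share animals, and p-values measure only the spread between these samples. In whole tissue, fewer cells of a type and less miRNA per cell cannot be told apart.

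The libraries held from 157871 to 7896424 reads on miRNAs, with a median of 1364823. Liver libraries held 614717 to 2594852 reads and plasma libraries 274790 to 1765863. All bone marrow libraries were shallow, at 162310 to 239023 reads. Levels are given in RPM, the reads of a miRNA scaled to a common total of miRNA reads. A count of 0 allows up to 3 reads at 95% confidence, which is 0.380 to 19.0 RPM depending on the depth of the library. Such limits, and all intervals on counts, cover counting error alone, since PCR copies were not separated.

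Each row also carries the name of miR-3591, which is annotated on the opposite strand of the same hairpin. The strand setting of the counting is not given in the sources used here, so reads of miR-122 and miR-3591 could not be told apart. In the gene table of the dog assembly UU_Cfam_GSD_1.0, MIR122 had 1 entry and lay between the protein-coding genes ALPK2 and NEDD4L. The files were made on CanFam3.1, so no coordinates are given.

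cfa-miR-122 was abundant in every liver library. Liver replicates 1 to 5 had 53382, 49660, 17923, 20282 and 28475 reads of it. These are 21287, 19138, 29157, 27079 and 22008 RPM. The mean was 23734 ± 4204 RPM (SD, n = 5), and the lowest and highest liver libraries differed by less than 2-fold. The share of all miRNA reads ran from 1.91% (95% Wilson interval 1.90 to 1.93) in replicate 2 to 2.92% (2.87 to 2.96) in replicate 3. The differences among liver libraries therefore exceeded counting error. By its median of 22008 RPM, cfa-miR-122 was rank 15 among the miRNAs of liver. Rank 1 was cfa-miR-192, an intestinal and liver miRNA, with a median of 176166 RPM.

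hsa-miR-122-3p followed at a lower level. Liver replicates 1 to 5 had 2081, 1952, 515, 725 and 1335 reads of it, which are 829.8, 752.3, 837.8, 968.0 and 1032 RPM. The mean was 884 ± 113 RPM (SD, n = 5), and the 3p arm was rank 57 in liver. Its coefficient of variation over the 5 livers was 12.8%, against 17.7% for the 5p arm. The median over the 118 miRNAs with a liver median above 100 RPM was 17.8%. Of these 118 miRNAs, 57 varied less than the 5p arm and 26 less than the 3p arm.

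The liver libraries held the other hepatocyte-linked miRNAs of a marker list, cfa-miR-885 and cfa-miR-802, at more than 3 reads each in all 5 samples. They also held miRNAs of other cells. The endothelial miRNA cfa-miR-126 had 13585 to 16196 RPM, the summed red cell miRNAs 24105 to 45788 RPM and the summed leukocyte miRNAs 1904 to 3979 RPM. The red cell sum includes cfa-miR-486, with a liver median of 28708 RPM. The study lists cfa-miR-486 among the most abundant miRNAs of heart and skeletal muscle too, so it does not mark red cells alone. The 4 miRNAs of fibroblasts, stellate and smooth muscle cells summed to 51788 to 77934 RPM. The 5 epithelial miRNAs summed to 59.5 to 291 RPM, and those of acinar cells, striated muscle and neurons to at most 125 RPM per list. The epithelial list takes miR-200a and miR-200b by their 5p rows, with 24 and 6 reads in liver. Their 3p rows had 368 and 618 reads, so the epithelial sum leaves out the major arms of both. The part of the listed cells in the level of miR-122 was not tested.

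**Figure D1:**
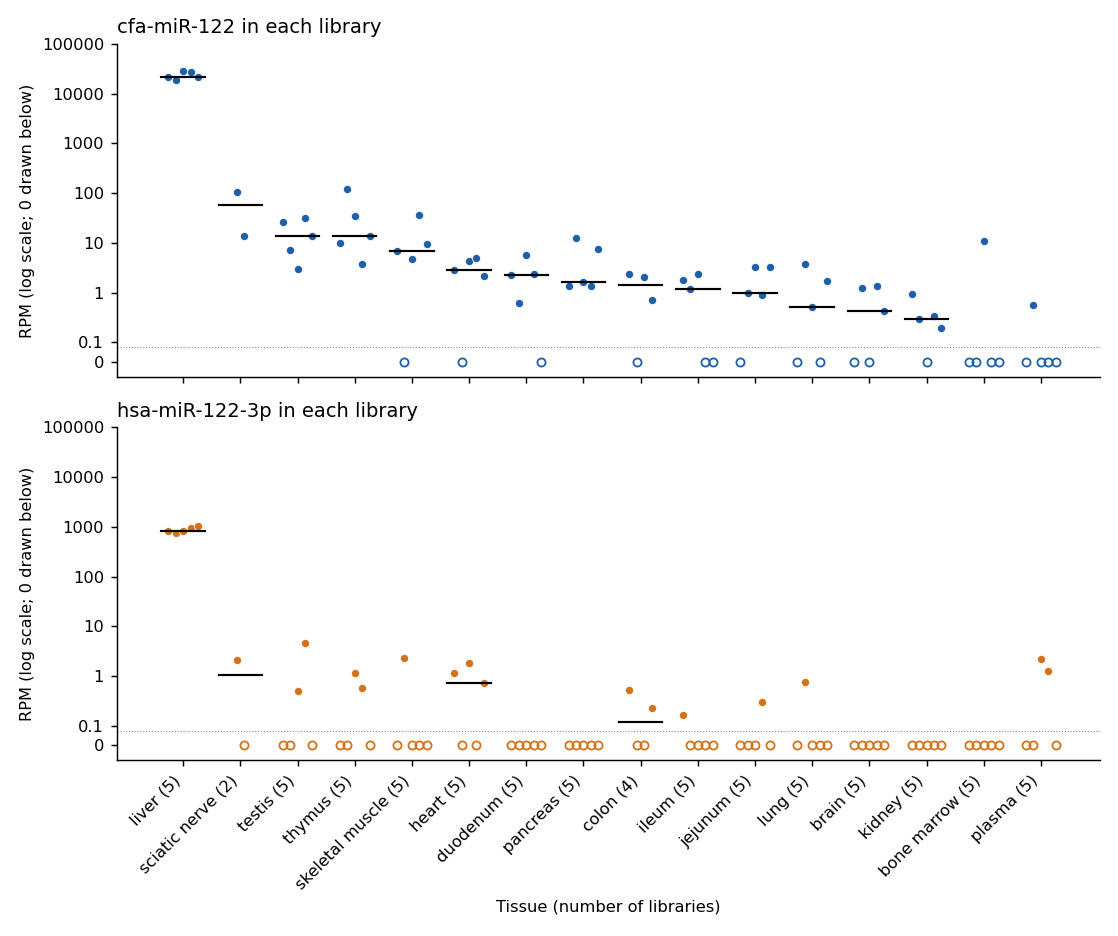
Level of each arm in every library, in RPM on a log axis, by tissue in the order of the cfa-miR-122 medians. Filled points are libraries with a read, open circles are libraries at 0, and black lines are tissue medians above 0. Liver sits above every other library for both arms, with a highest value elsewhere of 120.4 RPM for cfa-miR-122 and 4.55 RPM for hsa-miR-122-3p.

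The first comparison asked how far liver stands apart from the other 15 tissues. The 71 libraries outside liver had a mean of 7.47 RPM of cfa-miR-122 and a median of 1.37 RPM. The ratio of the liver mean to that mean was 3177 (adjusted p = 8.80e-06, two-sided exact rank-sum test, Benjamini-Hochberg over 650 miRNAs). For hsa-miR-122-3p the mean elsewhere was 0.286 RPM, the median 0, and the ratio 3093 (adjusted p = 8.80e-06, same exact test). Among miRNAs with a read outside liver, these were the largest ratios in liver, at ranks 1 and 2. A ratio above 5 with an adjusted p under 0.05 was met by 9 of 650 miRNAs, 1.38%, and both arms were among them.

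No liver library overlapped with any other library in either arm. The lowest liver library was 159 times the highest other library for cfa-miR-122 and 165 times for hsa-miR-122-3p. Of all miRNAs, 8 of 650, 1.23%, had every liver library above every other library. For the remaining 7 miRNAs past fold and test, the liver median was at most 2.24 times the highest library elsewhere. The liver median over the highest library elsewhere was 183 for cfa-miR-122 and 184 for hsa-miR-122-3p. The latter rests on a highest other library with 1 read, testis replicate 4 at 4.55 RPM in 219585 reads. Without that library it was 357.

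In the count model over all tissues (edgeR quasi-likelihood test), liver exceeded the mean of the other 15 tissues by 13.14 on the log2 scale for cfa-miR-122 (SE 0.41, adjusted p = 1.32e-39). For hsa-miR-122-3p the estimate was 11.80 (SE 0.26, adjusted p = 4.20e-38). These estimates depend on the prior count added by the model, since 5 tissues had no read of the 3p arm and plasma had 1 read of the 5p arm, so they are not bounds. Each SE of an edgeR estimate given here was worked back, as the estimate over the square root of the test's F statistic. It is thus a rough value that depends on the prior count as well. edgeR called 112 of 480 miRNAs higher in liver, 23.3%, and both arms were among them.

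The order of tissues below liver was settled only in outline. Sciatic nerve had the next median of cfa-miR-122, 58.9 RPM, followed by testis at 13.9, thymus at 13.8, skeletal muscle at 7.02 and heart at 2.79 RPM. Duodenum, pancreas, colon, ileum and jejunum had medians from 0.992 to 2.26 RPM, and lung, brain and kidney from 0.299 to 0.514 RPM. Bone marrow and plasma had medians of 0. Liver did not overlap with sciatic nerve (exact permutation p = 0.0476, the smallest that 5 against 2 samples allow). No other neighbouring pair was separated, and after adjustment over the 15 pairs of an arm no pair passed in either arm. With 5 samples a tissue the smallest exact p is 0.00794, and 0.119 after adjustment if 1 pair alone reaches it, so this design could hardly pass.

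For hsa-miR-122-3p only liver, sciatic nerve at 1.03 RPM, heart at 0.717 RPM and colon at 0.116 RPM had medians above 0. The order of the other 12 tissues, all with a median of 0, is not defined. Brain, duodenum, kidney, pancreas and bone marrow had no read of the 3p arm in any library.

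Outside liver the 5p arm was present as a trace. It had at least 1 read in 51 of 71 libraries and more than 3 reads in 26. The 20 libraries at 0 had limits of 1.47 to 18.5 RPM, so levels of the size seen in most other libraries were not detectable there. The 3p arm had a read in 16 of 71 libraries and more than 3 reads in 1, heart replicate 1 with 9 reads. Among the 55 libraries at 0, limits ran from 0.449 to 19.0 RPM.

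Above 10 RPM of cfa-miR-122 there were 12 libraries outside liver. They were 4 of thymus, 3 of testis, both of sciatic nerve, and 1 each of bone marrow, pancreas and skeletal muscle. Of these 12, 7 rested on 2 to 8 reads. Thymus replicate 2 was the highest at 120.4 RPM (95% Wilson interval 77.1 to 188), from 19 reads in the shallowest library of all. Sciatic nerve replicate 1 followed at 104.0 RPM (85.6 to 126) in a library of 971311 reads.

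Replicates of these tissues differed widely. The 5 thymus libraries had 8, 19, 60, 13 and 7 reads, from 3.80 to 120.4 RPM with a median of 13.8 RPM. Replicate 2 alone lifted the thymus mean to 36.4 ± 48.3 RPM (SD, n = 5). The 2 sciatic nerve libraries had 104.0 and 13.7 RPM. The 5 testis libraries had 26.4, 7.29, 2.96, 31.9 and 13.9 RPM, and the 5 skeletal muscle libraries 7.02, 0, 4.69, 36.3 and 9.50 RPM. Kidney, which was sequenced deeply, had 1, 2, 0, 2 and 1 reads and a highest value of 0.917 RPM.

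Other hepatocyte-linked miRNAs were looked up in the same libraries. cfa-miR-885, a miRNA of liver and brain, had 0 reads in thymus replicate 2, 3 reads in thymus replicate 3 and 8 reads, 8.24 RPM, in sciatic nerve replicate 1. cfa-miR-802, a miRNA of liver, pancreas and gut, had 0, 3 and 4 reads there. hsa-miR-122-3p had 0, 2 and 2 reads. In liver cfa-miR-885 and cfa-miR-802 had means of 230 and 271 RPM, against 23734 RPM of cfa-miR-122. Beside 19 reads of cfa-miR-122 in thymus replicate 2, their 0 reads there are therefore uninformative. Where the cfa-miR-122 reads of these libraries came from was not tested.

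The second comparison concerned plasma, the fluid in which miR-122 is followed. cfa-miR-122 had 0, 1, 0, 0 and 0 reads in plasma replicates 1 to 5, so 1 read among 6440642. hsa-miR-122-3p had 0, 0, 3, 2 and 0 reads. No plasma library held reads of both arms. The pooled level of the 5p arm was 0.155 RPM in plasma and 3.86 RPM in the other non-liver libraries, a ratio of 0.0402 (exact 95% interval 0.00102 to 0.225). For the 3p arm the pooled levels were 0.776 and 0.258 RPM, a ratio of 3.01 (0.909 to 7.86).

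By sample, cfa-miR-122 was lower in plasma than in the other non-liver libraries (adjusted p = 0.0276, two-sided exact rank-sum test). That test called 143 of 649 miRNAs lower in plasma, 22.0%. edgeR gave an adjusted p of 0.00995 in the same direction, and called 123 of 480 miRNAs lower in plasma, 25.6%. Leaving out any 1 of plasma replicates 1, 3, 4 and 5, each without a read of the 5p arm, left the rank-sum result short of the threshold (adjusted p = 0.0726 to 0.0771, exact test), while edgeR kept its call in each case. With every library thinned to the smallest total, no plasma read was left and the call was lost as well (adjusted p = 0.450, exact rank-sum test).

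hsa-miR-122-3p did not pass the exact rank-sum test in plasma (adjusted p = 0.591). edgeR called it higher in plasma (adjusted p = 0.000700), as it did 135 of 480 miRNAs, 28.1%. That call rests on 5 reads. It was lost without plasma replicate 3 (edgeR adjusted p = 0.0979) and with DESeq2 (adjusted p = 0.0970).

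Against liver, the pooled level of the 5p arm was 140863 times lower in plasma, with an exact 95% interval of 25282 to 5563820 from the single plasma read. The 3p arm was 1097 times lower (470 to 3379). edgeR called both arms higher in liver than in plasma (adjusted p = 1.73e-18 and 2.84e-16), as it did 25.4% of the 480 miRNAs.

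Plasma reads were largely of the 3 miRNAs of the red cell list, cfa-miR-451, cfa-miR-144 and cfa-miR-486, the last of them also abundant in heart and skeletal muscle. The summed share of the 3 was 54.4% to 81.6% of the reads of a plasma library, against a median of 1.65% in the other non-liver libraries. With these reads taken out of all totals, the pooled ratio of plasma to the other non-liver libraries was 0.106 (exact 95% interval 0.00267 to 0.591) for cfa-miR-122 and 7.90 (2.39 to 20.6) for hsa-miR-122-3p. By sample the 5p arm stayed lower (adjusted p = 0.0400, exact rank-sum test) and the 3p arm did not pass (adjusted p = 0.178, exact test). This change of totals was chosen after the values were seen.

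The third question was the ratio of the arms, which does not depend on how a library is scaled. In liver replicates 1 to 5 there were 25.7, 25.4, 34.8, 28.0 and 21.3 reads of the 5p arm per read of the 3p arm. The mean ratio was 27.0 ± 4.96 (SD, n = 5). The 3p arm made up 3.75% of the 176330 reads of both arms (exact 95% interval 3.66 to 3.84), and by library from 2.79% (2.56 to 3.04) in replicate 3 to 4.48% (4.25 to 4.72) in replicate 5. Replicate 3, the shallowest liver library, had the highest level of the 5p arm and the highest ratio.

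Other hairpins gave a scale for this value. In liver 114 precursors had rows of both arms that share at least 100 reads, and in 59 of them the row taken as 5p was the more abundant. Some hairpins were named after the miRNA of the opposite strand, which swaps their arms, so this count is approximate. The minor share does not depend on these names. The minor arm made up a median of 1.30% of the reads (quartiles 0.136% and 5.17%). The minor share of miR-122 exceeded that of 74 precursors and was below that of 39.

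Outside liver the arms were too sparse for a ratio by library. In thymus the 3p arm was 4 of 111 reads, 3.60% (exact 95% interval 0.990 to 8.97), and in sciatic nerve 2 of 119 reads, 1.68% (0.204 to 5.94). Both intervals hold the liver share. In pancreas it was 0 of 34 reads, which allows up to 10.3%. Summed over all non-liver libraries, the 3p arm was 34 of 469 reads, 7.25% (5.07 to 9.98), above the liver interval. It was 29 of 463 reads, 6.26% (4.23 to 8.87), without plasma. Leaving out heart as well, a choice made after its share was seen, gave 16 of 415 reads, 3.86% (2.22 to 6.19).

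Heart, colon and plasma had a larger 3p share, with intervals above that of liver. In heart the 3p arm was 13 of 48 reads, 27.1% (exact 95% interval 15.3 to 41.8). Heart replicate 1 gave 22 reads of the 5p arm and 9 of the 3p arm, replicate 3 gave 7 and 3, and replicate 5 gave 3 and 1. Replicate 4 had 3 reads of the 5p arm alone and replicate 2 had none of either. Without replicate 1, the deepest library of all, the share was 4 of 17 reads, 23.5% (6.81 to 49.9). In colon the share was 4 of 23 reads, 17.4% (4.95 to 38.8). Colon replicate 1 gave 14 reads of the 5p arm and 3 of the 3p arm, and replicate 5 gave 3 and 1. Colon replicate 3 had 2 reads of the 5p arm alone and replicate 2 had none of either. For colon replicate 1 alone the interval, 3.80 to 43.4, met that of liver. In plasma the share was 5 of 6 reads, 83.3% (35.9 to 99.6). Over the 102 precursors with at least 100 reads in both liver and heart, the median absolute change of the 3p share from liver to heart was 0.505 percentage points. For miR-122 it was 23.3 points. With 48 heart reads, miR-122 was not among the 102, so the 2 values are at unlike depth. These shares are descriptions of summed reads.

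**Figure D2:**
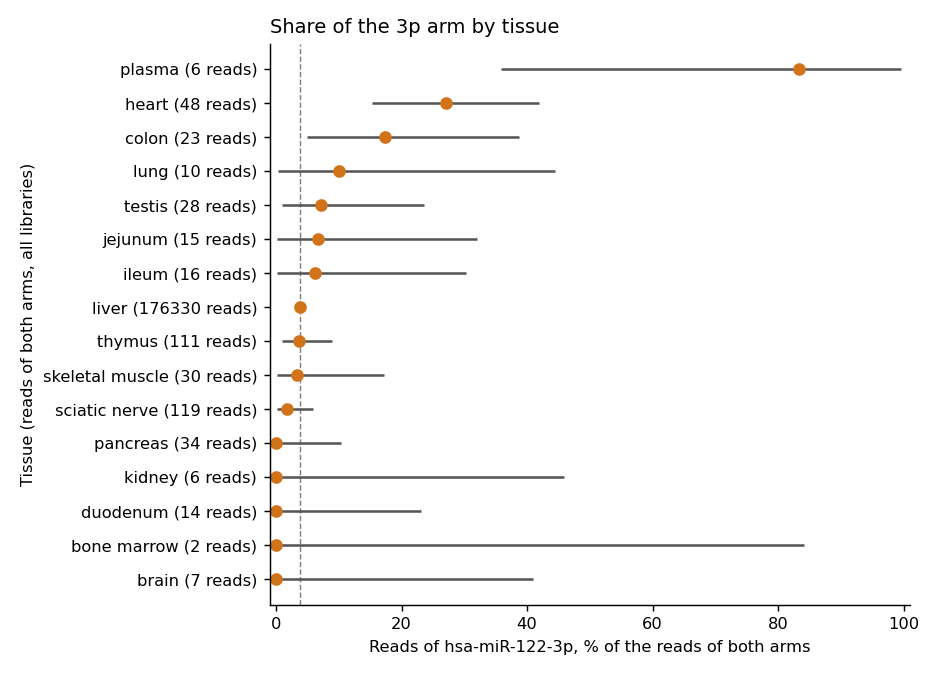
Reads of hsa-miR-122-3p as a percentage of the reads of both arms, summed over the libraries of each tissue, with exact 95% binomial intervals for counting error. The dashed line marks the liver share of 3.75%, which lies outside the intervals of plasma, heart and colon and inside those of the other 12 tissues.

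The log2 ratio of the arms per library, with 0.5 added to both counts, was 4.74 ± 0.26 in liver (SD, n = 5) and -0.71 ± 1.82 in plasma (SD, n = 5). The difference was 5.45 (exact permutation p = 0.00794, the smallest that 5 against 5 samples allow). No plasma library had more than 3 reads of an arm, so with 0.5 added none could reach the lowest liver value of 4.41. Full separation and this p were thus set by the number of reads, and the test says nothing on the arm ratio in plasma. Plasma replicates 1 and 5 had no read of either arm. With only libraries of 3 or more reads of the 3p arm, 1 plasma library was left and the difference was 7.55 (exact permutation p = 0.167, the smallest possible there). Of the 94 precursors with at least 100 reads in both liver and plasma, 2 had a different major arm in plasma, 2.13%. With 6 plasma reads, miR-122 was not among the 94.

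A list, chosen with earlier results of these data known, set the members beside 19 further miRNAs linked to liver in the literature. edgeR could test 18 of them, of which 17 were higher in liver than in the mean of the other 15 tissues, none was lower, and cfa-miR-193a did not pass (0.24 on the log2 scale, SE 0.52). Over all 480 miRNAs tested, edgeR called 23.3% higher in liver. The median of the 18 estimates was 2.72 on the log2 scale, against -0.36 over all miRNAs tested. Only 4 of the 19 passed both a ratio of means above 5 and the exact rank-sum test, as did 1.38% of all 650 miRNAs. The median ratio of the 19 was 2.03, against 0.250 over all miRNAs. The list held miR-193a and miR-193b by their 5p rows, which were their minor arms in liver. The major arm of miR-193b, rno-miR-193b-3p, was not on the list but passed both criteria. It had a mean of 1192 RPM in liver and a ratio of 9.74 (adjusted p = 8.80e-06, exact rank-sum test). With a list so chosen, these counts and medians are descriptions.

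The 4 were cfa-miR-101, cfa-miR-365, cfa-miR-455 and cfa-miR-483. cfa-miR-101 reached 12180 ± 2621 RPM (SD, n = 5) in liver, a ratio of 5.55 to the mean of the other libraries. cfa-miR-365 reached 449 ± 75.5 RPM, a ratio of 5.01, and cfa-miR-455 256 ± 40.1 RPM, a ratio of 7.61. cfa-miR-483, from an intron of the growth factor gene IGF2, had only 5.17 ± 0.872 RPM in liver, a ratio of 31.0. All 4 were above every other library in all liver libraries, but by far smaller margins than the members.

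Others of the list were high in liver and higher still in another tissue. cfa-miR-885 had 230 ± 64.1 RPM (SD, n = 5) in liver and up to 1412 RPM in brain. cfa-miR-802 had 271 ± 42.1 RPM in liver and up to 3009 RPM in pancreas. cfa-miR-148a had 68484 ± 10747 RPM in liver and up to 445204 RPM in pancreas. cfa-miR-192 had 184401 ± 23317 RPM in liver and up to 398717 RPM in jejunum. cfa-miR-22 had its highest tissue median in liver, 123048 ± 1055 RPM as a mean, with 138285 RPM in 1 skeletal muscle library.

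Plasma means of the list ran from 0 to 15480 RPM. cfa-miR-192 had a mean of 15480 ± 8690 RPM (SD, n = 5) in plasma, cfa-miR-22 13052 ± 4951 RPM and cfa-miR-148a 3180 ± 588 RPM. cfa-miR-885 and cfa-miR-802 had means of 0.915 and 5.67 RPM, and hsa-miR-885-3p and cfa-miR-483 had no read in plasma. The plasma means of cfa-miR-122 and hsa-miR-122-3p were 0.113 and 0.688 RPM. They rest on 1 and 5 reads, and that of cfa-miR-885 on 7 reads, so the order of these means is not settled.

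**Figure D3:**
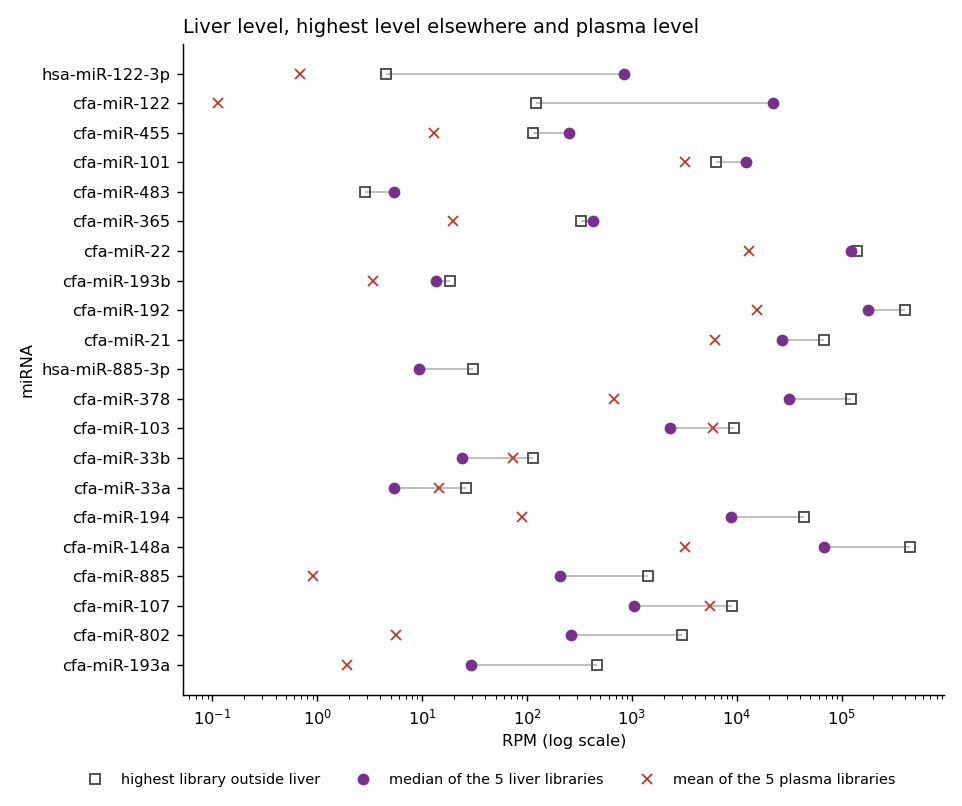
Liver median (filled circles), highest single library outside liver (open squares) and plasma mean (crosses) of both arms of miR-122 and 19 other liver-linked miRNAs, in RPM on a log axis. A plasma mean of 0 is not drawn. The rows run from the largest liver median over the highest other library, 184 for hsa-miR-122-3p and 183 for cfa-miR-122, to the smallest.

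The trace level elsewhere was set beside that of 8 miRNAs restricted to other tissues. The mean of cfa-miR-122 in the other libraries was 0.0315% of its liver mean, and that of hsa-miR-122-3p was 0.0323%. For cfa-miR-124 and cfa-miR-9, miRNAs of neurons, the mean outside brain was 0.0464% and 0.176% of the brain mean. For cfa-miR-216b and cfa-miR-217, miRNAs of pancreatic acinar cells, it was 0.0527% and 0.0311%, and for the testis miRNA cfa-miR-202 0.0198%. cfa-miR-206, a skeletal muscle miRNA, was at 0.299%. The heart miRNAs cfa-miR-499 and cfa-miR-208b, which slow skeletal muscle also makes, were at 1.39% and 1.72%. The relative level of both arms thus lay toward the low end of these 8, above cfa-miR-202 and cfa-miR-217 and below the others.

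Thymus replicate 2, the highest library for cfa-miR-122, had 6.33 RPM, 1 read each, of cfa-miR-124, cfa-miR-216b and cfa-miR-206, and none of cfa-miR-217 and cfa-miR-202. Sciatic nerve replicate 1 had 30.9 RPM of cfa-miR-206, 8.24 RPM of cfa-miR-216b and 2.06 RPM of cfa-miR-124. Such reads were common: cfa-miR-124 and cfa-miR-216b each had a read in 42 of the 71 libraries outside their tissue, and cfa-miR-206 in 16 of 71. Where these reads came from was not tested. cfa-miR-9, the other brain miRNA, had 63.3 RPM in thymus replicate 2 and 581 RPM in sciatic nerve replicate 1. It had a read in 68 of the 71 libraries outside brain, with a median of 41.7 RPM.

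**Figure D4:**
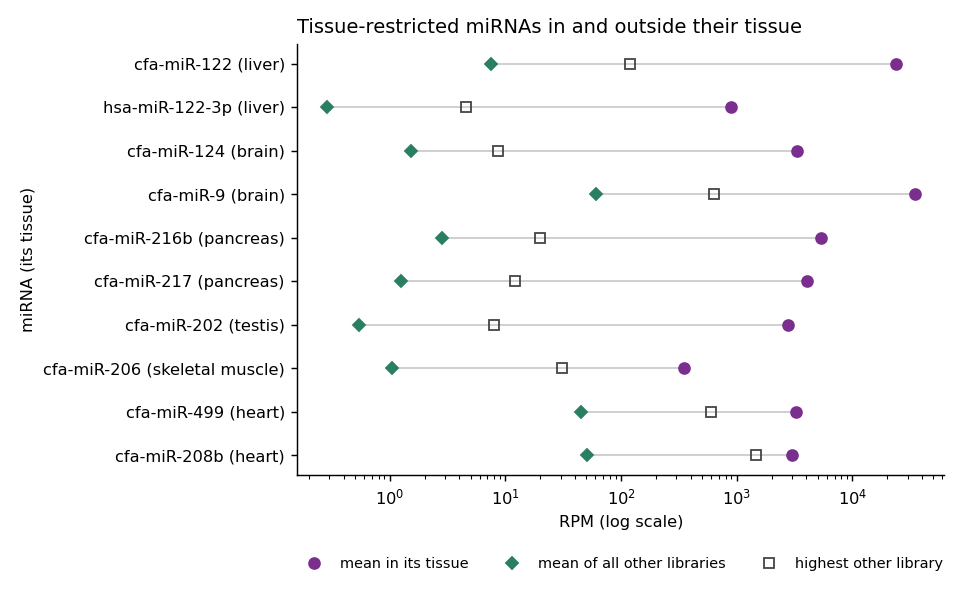
Mean in the tissue of origin (circles), mean of all other libraries (diamonds) and highest other library (squares) of both arms of miR-122 and 8 other tissue-restricted miRNAs, in RPM on a log axis. For both arms the mean of all other libraries is 0.0315% to 0.0323% of the liver mean.

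Over all 76 libraries, the 5 miRNAs whose log2(RPM + 1) was most correlated with cfa-miR-122 were hsa-miR-122-3p (Pearson r = 0.89), cfa-miR-483 (0.75), hsa-miR-365a-5p (0.69), cfa-miR-365 (0.63) and rno-miR-193b-3p (0.60). These values are descriptions. The 5 liver libraries stand apart from the other 71, so they mostly record which miRNAs are high in liver. Over the 71 non-liver libraries the highest were hsa-miR-27b-5p (0.50), hsa-miR-4492 (0.49), hsa-miR-493-5p (0.48), hsa-miR-199b-5p (0.47) and cfa-miR-365 (0.44). There hsa-miR-122-3p was rank 119 with r = 0.23, at counts of mostly 0 to 3 reads, in libraries that share the dependence of 1 read's RPM on depth.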

How the data were processed

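miR-seq read counts of 76 libraries were used. The authors clipped adaptors, aligned reads to CanFam3.1 with OSA v4 with 0 mismatches, excluded reads at more than 10 locations and used bedtools to count reads with an overlap of 70% or more with miRNA loci annotated in, or carried over to, the dog (miRBase v. 21 of dog, rat and human). The deposited values are these counts, each library's total of reads on miRNAs, and RPM, the counts scaled by that total. RPM computed from the counts matched the deposited values within a relative 2.89e-09. The deposited highest RPM of each miRNA over the authors' samples was not used. miRNAs not listed for a library were set to 0. Of the 77 labelled samples 1 colon sample had no values, and 1 sample name in the table, which could not be matched to a label with certainty, was not used. Tissues were taken from the labels.

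Liver and plasma were compared with the other libraries by the ratio of mean RPM and an exact rank-sum test (two-sided, on midranks), with Benjamini-Hochberg adjustment over miRNAs with a read, and by edgeR 4.0.16 (TMM, filterByExpr, quasi-likelihood test) in 1 fit over all tissues with the deposited totals. Neighbouring tissues, on log2(RPM + 1), and arm ratios, with 0.5 added to both counts, were compared by exact permutation tests. Pooled ratios and arm shares have exact (Clopper-Pearson) intervals, and single shares Wilson intervals, at 95%. Where all libraries of a group had at most 3 reads, no fitted fold change is given for that group alone. The fitted estimates of liver against the mean of the other tissues do include such groups. DESeq2 1.42.0 served as an alternative, as did other scalings, filters, pseudocounts, thinning to the smallest library and leaving out single libraries. Python 3.11.15 (scipy 1.17.1, pandas 2.3.3, numpy 2.4.6, matplotlib 3.10.9) and R 4.3.3 were used. The rank-sum test with its ratio of means, and the edgeR fit, were tested on simulated counts with known changes in liver. That simulation does not cover the sparse plasma comparison or the permutation tests.

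The named miRNAs are both arms, 19 other liver-linked miRNAs, 8 tissue-restricted miRNAs and the 5 most correlated with cfa-miR-122 over all and over non-liver libraries. The members, lists and rules were chosen with earlier results of these data known.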

Additional observations from a re-analysis of the deposited data

Results flagged for a closer look

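In groups of 4 or 5 libraries, a library was singled out where its gap to the nearest other value exceeded Dixon's 95% critical value, 0.829 or 0.710 of the group's range. A library was singled out in 9 of 26 groups. The nominal chance rate of about 1 in 20 groups does not hold for groups with few reads. Many of the groups held few reads, so the count of 9 cannot be read as an excess over chance. A group with reads in 1 library alone always meets this criterion.

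For cfa-miR-122 these were thymus replicate 2 at 120.4 RPM from 19 reads, skeletal muscle replicate 4 at 36.3 RPM from 8 reads, bone marrow replicate 3 at 10.8 RPM from 2 reads and plasma replicate 2 at 0.566 RPM from 1 read. In bone marrow and plasma the other 4 libraries had none. For hsa-miR-122-3p they were testis replicate 4 at 4.55 RPM, skeletal muscle replicate 2 at 2.34 RPM, lung replicate 2 at 0.745 RPM, jejunum replicate 4 at 0.301 RPM and ileum replicate 1 at 0.163 RPM, each from 1 read. In testis 1 other library had a read, and in the remaining 4 tissues the other libraries had none. No liver library was singled out for either arm or for the ratio of the arms.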

How the results depend on the processing

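Of 125 alternative values, 110 kept their direction and side of the threshold or stayed within the limits set, 8 lost a call, 7 moved and none reversed. The 110 include repeats of the arm ratio test of liver and plasma and of the tests of neighbouring tissues. Their outcome was set, or nearly set, by the number of reads or samples, so they say nothing on stability. The ratio of the liver mean to the other libraries stayed between 2397 and 3968 for cfa-miR-122 and between 1970 and 4800 for hsa-miR-122-3p under every scaling, thinning or left-out sample tried, and past the test. As a ratio of medians it was 16035 and, against the limit of 3 reads, 387. Other scalings moved the liver median over the highest other library to 248 (TMM) and 136 (DESeq2 size factors) for cfa-miR-122, and to 212 and 124 for hsa-miR-122-3p. For the latter it was 136 after thinning every library to the smallest total and 357 without testis replicate 4. The plasma ratio of cfa-miR-122, 0.0141, was 0 after thinning (adjusted p = 0.450, exact rank-sum test), where no plasma read was left, and ranged from 0 to 0.0176 without 1 plasma library. For hsa-miR-122-3p the adjusted p in plasma was 0.0970 with DESeq2, and with edgeR it ranged from 0.000125 to 0.0979 without 1 plasma library. The arm ratio difference of liver and plasma, whose test was decided by read number, was 7.55 where libraries needed 3 reads of the 3p arm (exact permutation p = 0.167) and 4.92 to 6.02 without 1 library. DESeq2 called 59 miRNAs higher in liver, against 112 by edgeR. The cause of these changes was not tested beyond the fewer reads and libraries named. Taking the sciatic nerve, the thymus or the red cell miRNA reads out of the plasma comparison was chosen after seeing the data and changed no call. No paired analysis was possible because the labels carry no dog number. Depth limits the values outside liver most: in 45 of 71 libraries the 5p arm had at most 3 reads.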
